A study of Caenorhabditis elegans with 2 samples.

Results

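The X chromosome carried 280 binding regions of the tagged zinc finger protein Y55F3AM.14 that lay away from tRNA genes, out of 342 regions on X and 1604 in the genome. They were taken from the optimal list of the series, the list that its authors thresholded by the irreproducible discovery rate, and each has its summit more than 500 bp from every start of a tRNA or snoRNA gene in the RefSeq annotation of WBcel235. The other 62 regions of X lay within that distance. The regions were measured by chromatin immunoprecipitation followed by sequencing (ChIP-seq) with an anti-GFP antibody in 2 biological replicates of whole larvae at the L2 stage, 42 hours old and of mixed sex. Both came from the Caenorhabditis elegans strain OP608, of genotype unc-119(tm4063) with the integrated transgene wgIs608, which holds Y55F3AM.14 (znf-782 in the annotation) tagged with TY, EGFP and 3xFLAG and an unc-119(+) rescue marker. The design has no second genotype or stage. The X regions were therefore set against 1129 optimal regions of the autosomes chosen by the same distance, and against weaker regions, which are regions of the relaxed pooled list that overlap no optimal region: 4886 on X and 22223 on the autosomes.

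C2H2 zinc finger proteins bind DNA through small zinc-holding fingers, and many act in the control of transcription. The X chromosome of C. elegans differs from the autosomes in that it is dosage compensated: in hermaphrodites a condensin-containing complex loads onto both X chromosomes at recruitment sites and lowers their transcription. Those recruitment sites share a motif known as MEX, which contains the word CGCAGGG, and the gene-dense centres and repeat-rich arms that mark worm autosomes are less distinct on X. Whole larvae were used, so a region can come from any tissue that expresses the transgene.

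Values called scores below are the signal values that the authors' peak caller gave to each region, in arbitrary units. Sequencing depth is unknown, and 1 control served both replicates. Shares were compared with Fisher's exact test, two-sided, and p-values were adjusted by the Benjamini-Hochberg method, over 18 shares for X against autosomes and over 15 for optimal against weaker regions of X, and a share is called at an adjusted p under 0.05. Beside them stands a likelihood ratio chi-square test, in a binomial model, of whether the contrast between optimal and weaker regions differs between X and autosomes, given as a ratio of odds ratios. Regions are not replicates, so these p-values measure scatter across regions of 1 data set, while each replicate is used through its own relaxed list.

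The strongest region of X lay 495 bp upstream of epn-1, which encodes epsin, an adaptor of clathrin-mediated endocytosis, at chrX:14818863-14819101. The next ones lay between the peptide genes nspc-17 and nspc-18, and 310 bp upstream of serp-1.1, a gene for a stress-associated protein of the endoplasmic reticulum. The fourth lay in an intron of unk-1, and the fifth 6176 bp from F13D11.3 in the interval toward hbl-1, which encodes a hunchback-like transcription factor of developmental timing. The sixth lay 295 bp upstream of puf-9, a gene for a Pumilio-family RNA-binding protein. Their summit sequences follow, 50 bases on each side of the summit. Those at epn-1, serp-1.1 and puf-9 share the word GACGC, and how alike the sequences are was not tested. Capitals mark GACGC and CGCAGGG on either strand. All are read from the RefSeq genome WBcel235, plus strand.
epn-1 (chrX:14818959-14819059): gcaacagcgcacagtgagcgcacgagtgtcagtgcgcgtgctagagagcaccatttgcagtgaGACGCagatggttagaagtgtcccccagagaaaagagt
nspc-17 (chrX:14525846-14525946): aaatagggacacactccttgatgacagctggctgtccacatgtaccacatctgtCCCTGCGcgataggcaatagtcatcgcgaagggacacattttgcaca
serp-1.1 (chrX:15841212-15841312): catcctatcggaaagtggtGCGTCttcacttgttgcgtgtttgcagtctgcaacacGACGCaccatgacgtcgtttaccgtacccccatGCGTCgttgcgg
C34D10.5, in unk-1 (chrX:8021773-8021873): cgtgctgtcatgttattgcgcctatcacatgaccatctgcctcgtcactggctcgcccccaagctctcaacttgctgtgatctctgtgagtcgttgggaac
F13D11.3 (chrX:5812048-5812148): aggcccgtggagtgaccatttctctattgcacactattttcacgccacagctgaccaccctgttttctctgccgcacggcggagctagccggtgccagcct
puf-9 (chrX:5841247-5841347): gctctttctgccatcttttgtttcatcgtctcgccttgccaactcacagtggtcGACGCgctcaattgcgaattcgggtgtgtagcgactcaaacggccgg

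Regions carrying CGCAGGG, the core of the MEX motif, were more frequent on X than on the autosomes. The word lay within 75 bp of the summit, on either strand, in 17 of 280 X regions (6.07%, exact 95% interval 3.58 to 9.54) and in 17 of 1129 autosomal regions (1.51%, 0.880 to 2.40), an odds ratio of 4.22 (adjusted exact p = 0.00100). Weaker regions did not show this contrast in size: 23 of 4886 on X (0.471%) and 97 of 22223 on the autosomes (0.436%) had the word. The ratio of odds ratios was 3.85 (likelihood ratio chi-square test, adjusted p = 0.0174). Within X, optimal regions carried it with an odds ratio of 13.7 over weaker regions (adjusted exact p = 1.61e-11). All 3 calls held in each of the 9 alternatives computed for them, in which the odds ratio of X over the autosomes ran from 3.63 to 17.1 and the ratio of odds ratios from 3.39 to 15.6.

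**Figure D1:**
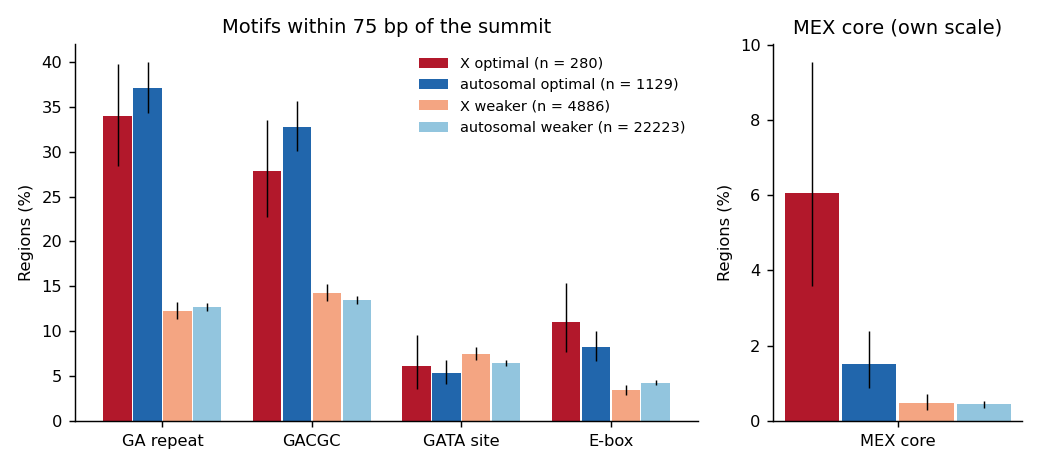
Share of regions, in percent, with each motif within 75 bp of the summit, for X optimal, autosomal optimal, X weaker and autosomal weaker regions; bars start at 0 and error lines are exact 95% intervals that cover counting error only. The GA repeat (GAGAGA) and GACGC stand high in both optimal sets, whereas the MEX core (CGCAGGG), drawn on its own scale, stands at 6.07% on X and 1.51% on the autosomes.

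The word itself is not concentrated on X. The genome holds 301 copies on X (16.99 per Mb) and 1329 on the autosomes (16.1 per Mb), and it occurs in 0.243% of 151 bp tiles of X and in 0.233% of autosomal tiles. On X, 19 of the 301 copies (6.31%) lay at the summits of the 280 regions, against 17 of 1329 (1.28%) at autosomal summits. By chromosome the share of optimal regions with the word was 6.07% on X, and on the autosomes it was 0.948% on I, 1.05% on II, 1.69% on III, 0.926% on IV and 2.55% on V.

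Among X regions the MEX core went with high scores, and among autosomal regions it did not. The 17 X regions with it had a median pooled score of 276.7, against 149.4 for the X regions without it. The 17 autosomal regions with it had a median of 132.8, against 148.8 without it. Of the 20 highest-scoring X regions 5 carried it, against 12 of the other 260, while 0 of the 20 highest-scoring autosomal regions did. Of the 70 highest-scoring X regions 11 carried it, and of the other 210 it was 6. Scores are given as a description with no test of their own.

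The bases beside the core also differed between the groups. On X, 12 of the 17 had G directly before CGCAGGG, 9 had CG and 7 had TCG, which together spell TCGCGCAGGG, a longer stretch of the MEX consensus. On the autosomes 1 of 17 had G, 0 had CG and 0 had TCG. The 10 highest-scoring X regions with the core are shown with 12 bases on each side, read in the direction of CGCAGGG, so that this stretch can be seen.
nspc-17 (minus strand, chrX:14525888-14525918): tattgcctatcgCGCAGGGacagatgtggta
W02H3.3 (minus strand, chrX:11094214-11094244): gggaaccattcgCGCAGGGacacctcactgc
gtr-1 (plus strand, chrX:806663-806693): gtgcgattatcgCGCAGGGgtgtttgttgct
cest-16, in mom-1 (plus strand, chrX:6296565-6296595): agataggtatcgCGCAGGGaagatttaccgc
Y41G9A.17 (minus strand, chrX:2997111-2997141): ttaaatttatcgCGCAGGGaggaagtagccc
F20B6.9 (minus strand, chrX:4209254-4209284): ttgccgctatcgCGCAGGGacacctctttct
F55G7.5 (plus strand, chrX:11937530-11937560): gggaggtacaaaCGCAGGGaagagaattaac
itm-2, in pks-1 (plus strand, chrX:5429579-5429609): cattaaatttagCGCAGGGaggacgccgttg
nhr-48 (minus strand, chrX:15707626-15707656): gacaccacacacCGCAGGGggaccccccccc
ins-39 (plus strand, chrX:1345045-1345075): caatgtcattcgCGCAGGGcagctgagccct

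The 7 X regions with TCGCGCAGGG scored from 257.6 to 568.4, with a median of 375.7, and the 10 with other bases before the core scored from 125.4 to 317.7, with a median of 216.8. The longer word was chosen after these values were seen and carries no test. The genome holds 19 copies of it on X and 6 on the autosomes, and 8 of the 19 lay at summits of the X regions, 1 at a weaker summit of X and 0 of the 6 at any autosomal summit.

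The leading region with the core, at nspc-17, had pooled score 568.4 and scores of 342.6 in replicate 1 and 234.2 in replicate 2. The region at W02H3.3 had 220.5 and 228.8 in the 2 replicates, that at gtr-1, a gene for a G protein-coupled receptor, 200.3 and 191.0, and that in an intron of mom-1, which encodes a Porcupine homolog of the Wnt pathway, 203.5 and 185.3. All 17 had a summit in both replicate lists. Of the 17, 7 had no protein-coding start within 2000 bp and 3 had one within 500 bp, whereas of the 17 autosomal ones 1 had none within 2000 bp and 12 had one within 500 bp. The regions at W02H3.3 and in mom-1 each held 2 copies of the core. No library of a dosage compensation factor was used here, so whether these regions overlap sites of that complex was not tested, nor whether they are particular to the tagged protein.

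**Figure D2:**
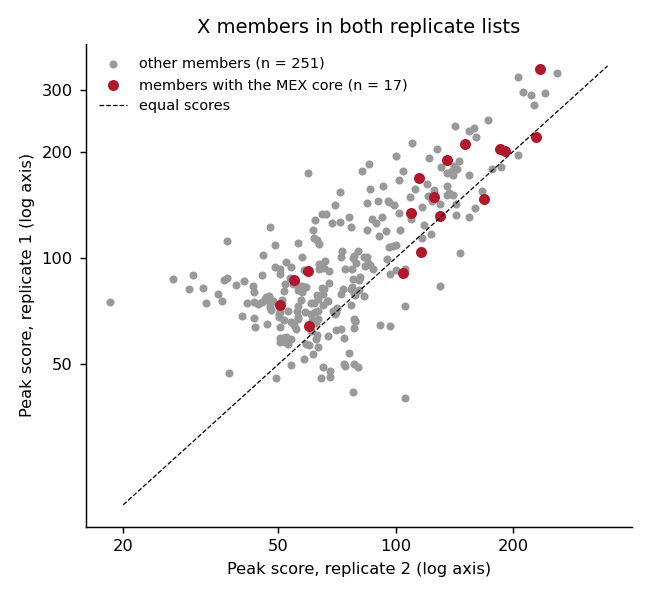
Score of each X region in replicate 1 against its score in replicate 2, on log axes, for the 268 regions with a summit in both lists; red points are the 17 regions with the MEX core and the dashed line marks equal scores. The red points run from 64.2 to 342.6 in replicate 1 and from 50.4 to 234.2 in replicate 2, and most points lie above the line, on the side of replicate 1.

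The other motifs were shared with autosomal regions. GA repeats (GAGAGA) lay at 95 X summits (33.9%) and 419 autosomal summits (37.1%), against 12.3% of weaker regions of X and 12.7% of weaker autosomal regions. GACGC lay at 78 X summits (27.9%) and 370 autosomal summits (32.8%), against 14.3% and 13.5% of the weaker regions of X and of the autosomes. Both were called between optimal and weaker regions of X (adjusted exact p = 1.06e-18 and 3.26e-08), and neither passed between X and autosomes (adjusted exact p = 0.427 and 0.208). These words were chosen because they had been seen earlier in the regions of these data. The calls within X are therefore not independent of that choice. CACGTG, the E-box bound by basic helix-loop-helix factors, lay at 31 X summits (11.1%) and 93 autosomal summits (8.24%), against 3.42% of weaker X regions (adjusted exact p = 1.13e-07 within X), and did not pass between X and autosomes (0.256). GATAAG, bound by GATA factors, lay at 17 X summits (6.07%) and 7.51% of weaker X regions and did not pass (adjusted exact p = 0.478).

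Further summit windows show these sites. The window near sma-9 belongs to the highest-scoring X region with GATAAG and also holds GAGAGA, and the one near R03E9.2 to the highest-scoring X region with CACGTG. The highest-scoring region with GAGAGA was that at puf-9, where the repeat lies outside the bases printed above. Capitals mark GAGAGA and GATAAG and also CACGTG on either strand, and both are read from the plus strand.
sma-9 (chrX:10766267-10766367): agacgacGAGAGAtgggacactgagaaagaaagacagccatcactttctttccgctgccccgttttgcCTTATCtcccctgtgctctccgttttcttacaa
R03E9.2 (chrX:6737691-6737791): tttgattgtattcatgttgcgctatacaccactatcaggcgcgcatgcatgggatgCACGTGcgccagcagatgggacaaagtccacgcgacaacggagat

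GA repeats and GACGC occurred together in 24 X regions, and 96 X regions held none of the 5 motifs. Of all 6-mers, each counted with its reverse complement, 306 (14.7%) were more frequent at X summits than in a window 400 bp to one side of the same summit, and 242 (11.6%) were less frequent (exact McNemar test, adjusted p under 0.05). AGAGAG was at 32.1% of X summits and 5.36% of their flanks, and GCCCCC at 12.9% and 0.357%. AAAATT was at 14.6% of summits and 57.5% of flanks. GC content moved with these words: its median was 48.3% in X summit windows, 47.02% at autosomal summits and 40.4% at weaker summits of X. Its part in the 6-mer counts was not tested.

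Set directly against autosomal summits, 9 of the 6-mers (0.433%) were called by Fisher's exact test, 5 higher and 4 lower on X. CTGCCC was at 11.8% of X summits and 3.72% of autosomal summits (adjusted exact p = 0.00185), and CCCTGC, whose reverse complement lies inside CGCAGGG, at 10.4% and 4.25% (0.0440). CGCAGA was at 10.7% of X summits and 21.9% of autosomal summits (0.0119), and ATTAAT at 0 of 280 X summits and 4.16% of autosomal ones (0.0233). The number of calls fell to 1 with windows of 50 bp on each side, 5 with replicate 2 alone and 4 with replicate 1 alone.

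By location, the X regions lay less often in coding exons and farther from gene starts than autosomal regions. Coding exons held 5 of the 280 summits (1.79%, 0.582 to 4.12), against 86 of 1129 on the autosomes (7.62%, 6.14 to 9.32; odds ratio 0.241, adjusted exact p = 0.00100) and 25.1% of weaker X regions (adjusted exact p = 1.10e-25). The autosomal share ran from 3.32% on I to 14.2% on V. Without chromosome V the contrast was still called, with an odds ratio of 0.339 (adjusted exact p = 0.0396), and in the stricter list, the top 50% of optimal regions by score, it was not (0.333, adjusted exact p = 0.363). The ratio of odds ratios against weaker regions was 0.357 (likelihood ratio chi-square test, adjusted p = 0.0374) and lost its call in several alternatives, among them 0.507 without replicate 2 (adjusted p = 0.100) and 0.499 without V (0.215).

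Distal summits, those with no protein-coding start within 2000 bp, made up 95 of the 280 on X (33.9%) and 289 on the autosomes (25.6%), an odds ratio of 1.49 (adjusted exact p = 0.0308). The weaker regions stood at 39.99% on X and 31.9% on the autosomes, and the ratio of odds ratios was 1.05 (likelihood ratio chi-square test, adjusted p = 0.824). With 1 region per cluster the distal contrast was not called (odds ratio 1.36, adjusted exact p = 0.201). Promoter summits, at most 500 bp from the start of a protein-coding gene, made up 93 on X (33.2%) and 461 on the autosomes (40.8%), which did not pass (adjusted exact p = 0.0581). Within X the promoter share of optimal regions was above the 21.3% of weaker ones (odds ratio 1.84, adjusted exact p = 1.26e-05). Of the 93 promoter summits 86 lay upstream of the nearest start, with a median position of -208 bp, against 373 of 461 and -159 bp on the autosomes.

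**Figure D3:**
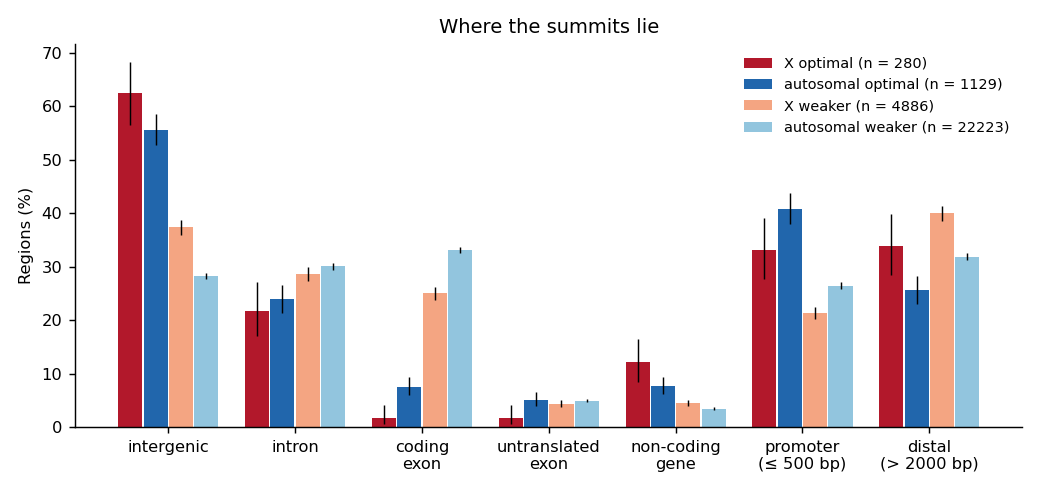
Share of summits, in percent, in each class of sequence and at promoters or distal sites, for X optimal, autosomal optimal, X weaker and autosomal weaker regions, with exact 95% intervals. Optimal regions stand above weaker ones for intergenic sequence, non-coding genes and promoters and below them for coding exons, where X is at 1.79% and the autosomes at 7.62%.

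Intergenic sequence held 175 X summits (62.5%), against 55.6% of autosomal ones (adjusted exact p = 0.0860) and 37.4% of weaker X regions (adjusted exact p = 7.04e-16). Introns held 61 (21.8%), against 28.7% of weaker X regions (adjusted exact p = 0.0208). Non-coding genes outside protein-coding genes held 34 (12.1%), 33 of them unclassified ncRNA genes and 1 a pseudogene, against 4.50% of weaker X regions (adjusted exact p = 1.07e-06) and 7.71% of autosomal regions (0.0581). Untranslated exons held 5 (1.79%), against 4.42% of weaker X regions (0.0440), a call that was lost without either replicate. The strongest summits in coding exons were at pks-1, a polyketide synthase gene (pooled score 284.7, with the MEX core), T07F12.1 (144.2) and meg-2, a gene for a germ granule protein (127.8). In untranslated exons they were at F19H6.6 (212.6), T22B7.7 (186.6) and R04E5.9 (137.8).

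The X regions were spread along the chromosome, with 83 in the left, 89 in the middle (31.8%) and 108 in the right of 3 equal lengths. On the autosomes the middle length held 41.0% (odds ratio of X over autosomes 0.672, adjusted exact p = 0.0300), a contrast that did not pass in the stricter list (0.769) or with 1 region per cluster (0.662). Weaker regions of X were also even, with 31.4% in the middle length. In 10 equal bins the members numbered between 20 and 40, with the most in the eighth.

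Optimal and weaker regions over 500 bp from tRNA and snoRNA starts together numbered 28518, of which 1409 (4.94%) were optimal. On X this was 280 of 5166 (5.42%) and on the autosomes 4.83%. Regions of the relaxed pooled list that overlap an optimal region are not counted as weaker. X thus held 19.9% of the optimal regions (17.8 to 22.1) and 18.02% of the weaker ones, an odds ratio of 1.13 that did not pass (two-sided exact p = 0.0821). The density was 15.8 per Mb on X and between 12.3 and 17.2 per Mb on the autosomes. The nearest regions inside the distance rule were at the snoRNA gene T27A8.8, 799 bp away (pooled score 241.6), at rte-1, which the annotation types as a tRNA, 1027 bp away (111.9), and at the tRNA gene C30E1.t1, 1455 bp away (328.8). The nearest outside it were at the snoRNA gene W01H2.11, 462 bp away (214.0), and the tRNA gene C18A11.t2, 332 bp away (408.6).

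Pooled scores of the X regions ran from 110.9 to 592.3, with a median of 151.9 and quartiles at 126.9 and 226.4, against a median of 148.0 and a highest value of 1466 on the autosomes. In the top 25% of all scores lay 30.7% of the X regions and 24.0% of the autosomal ones (odds ratio 1.41, adjusted exact p = 0.0581, not called). With the 1604 highest-scoring regions of 1 replicate list in place of the optimal list it was called, at 1.455 without replicate 1 (adjusted exact p = 0.0335) and 1.464 without replicate 2 (0.0262). Of the 280, 268 had a summit within 100 bp in both replicate lists, 7 in replicate 1 alone and 5 in replicate 2 alone, and 182 were among the 1604 highest-scoring regions of both. Of the 1129 autosomal regions, 1059 were in both lists and 689 among the highest of both. Neither share was called between X and autosomes (adjusted exact p = 0.353 for each). The optimal list was derived from these replicates, so this overlap is not independent of it. The median score was 89.5 in replicate 1 and 71.5 in replicate 2, and 215 of the 268 scored higher in replicate 1. Autosomal regions leaned the same way, with medians of 82.4 and 71.1, and 775 of 1059 scored higher in replicate 1. Across the 268 regions, which share their libraries and were selected by the pooled score, Spearman's rho between the replicates was 0.659.

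The 20 strongest regions are a mixed set. Of these, 10 lay in intergenic sequence, 6 in non-coding genes and 4 in introns, and 10 were distal, 3 at promoters and 7 between. All 20 were among the 1604 highest of both replicates, 17 scored higher in replicate 1, and none held the E-box. The epn-1 region had a pooled score of 592.3, with 333.5 in replicate 1 and 260.0 in replicate 2. At serp-1.1 the replicates gave 293.2 and 241.8, in unk-1 325.8 and 206.1, at F13D11.3 289.4 and 222.5, and at puf-9 294.5 and 211.7. In each of these 5 replicate 1 was the higher, as in most regions of X and of the autosomes.

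Below them came ftt-2, a 14-3-3 gene (pooled score 500.6, with the summit 538 bp upstream), W02H3.3 (450.8) and ain-1, which encodes a GW182-family partner of the microRNA Argonautes (417.7, 967 bp upstream). The region at ZK899.6 (405.3) and those at gtr-1 (396.8), nfki-1, an ankyrin-repeat gene (389.0), and tmem-184 (385.7) followed. Regions also lay 587 bp upstream of spat-3, which encodes a RING-finger protein related to RING2 of Polycomb complexes (382.1), and in an intron of kin-20, a casein kinase 1 gene related to the clock kinase doubletime (379.6). The last of the 20 were in mom-1 (375.7, nearest start cest-16), F22H10.2 (365.4), Y41G9A.17 (359.4), nhr-45, a nuclear hormone receptor gene (358.6), and C30E1.4 (328.8).

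**Figure D4:**
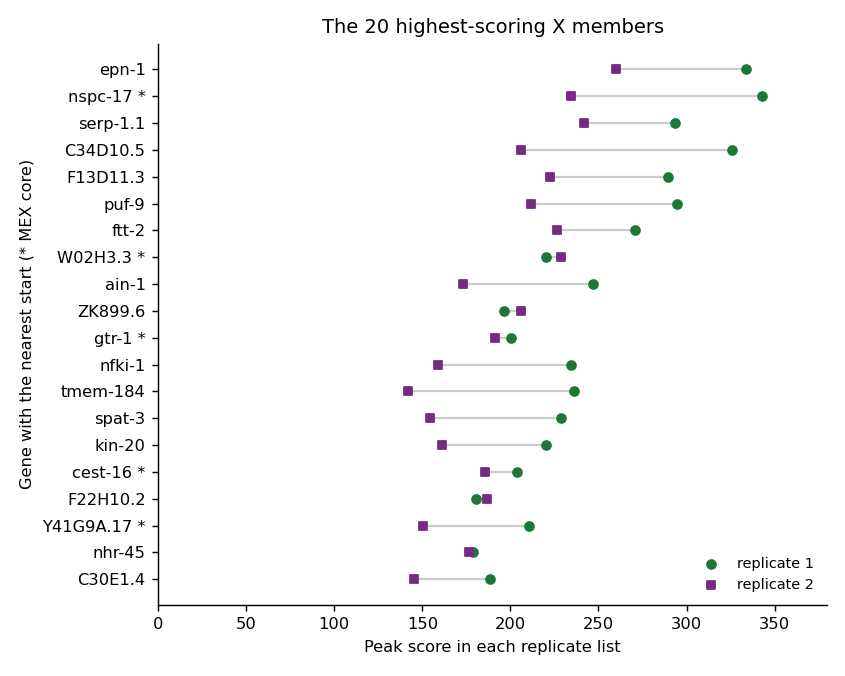
Score of the 20 highest-scoring X regions in replicate 1 (circles) and replicate 2 (squares), each named by the gene with the nearest start and ordered by pooled score, with an asterisk where the MEX core lies at the summit. Replicate 1 runs from 178.8 to 342.6 and replicate 2 from 142.1 to 260.0.

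Among the 100 highest-scoring X regions the replicates differed most at sto-4, which encodes a stomatin, with 174.1 in replicate 1 and 59.5 in replicate 2, and at bet-2, a bromodomain gene of the BET family, with 184.2 and 85.7. Here replicate 1 was higher, by 1.55 and 1.10 on the log2 scale. The opposite was largest at daf-12, which encodes the steroid receptor of the dauer decision, with 83.5 and 130.2, and at ldb-1, a LIM-domain-binding factor gene, with 103.1 and 146.6. The window at sto-4 was not single-copy in the genome, so reads there could be shared with another locus. Over all X regions 269 of 280 windows (96.1%) were single-copy, against 94.7% on the autosomes.

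Several regulatory genes of X were each nearest to more than 1 region. Of 217 genes that were nearest to a region, 15 had 3 or more. With summits up to 5000 bp apart joined, the 280 regions formed 213 runs, of which 169 were single regions and 44 held 2 to 6, together 111 regions. These counts take close pairs as 2 regions, and 28 of the 280 had another optimal summit 190 to 220 bp away. Some runs are only such a pair, as at epn-1 and ain-1. The regions nearest to ftt-2, tatn-1, sma-9, pdi-2 and mxl-3 include 1 such pair each. Regions nearest to the same gene need not form a run. The summits nearest to nhr-1 lay more than 5000 bp apart, and those nearest to mdl-1, scd-1 and ZK470.2 did not all lie in the same run. Another optimal summit lay within 5000 bp of 116 X regions (41.4%), against 43.5% on the autosomes (adjusted exact p = 0.577) and 17.97% of weaker X regions (adjusted exact p = 6.32e-18). The contrast with weaker regions is partly set by definition, because a weaker region cannot overlap an optimal one, whereas optimal regions can overlap each other. With 1 region per cluster it was not called (odds ratio 1.32, adjusted exact p = 0.151).

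The gene lin-14, whose nuclear protein times larval development and is repressed by the microRNA lin-4, had 5 regions over 8039 bp. Its pooled scores in chromosome order were 155.7, 260.7, 175.0, 223.1 and 249.6. The first lay 125 bp upstream of a start and the other 4 in introns, and the intronic regions scored higher than the one at the start. In replicate 1 the 5 regions had scores of 82.0, 165.8, 109.5, 145.3 and 160.4, and in replicate 2 they had 76.6, 102.1, 63.6, 95.6 and 92.8.

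The gene mdl-1, which encodes a Mad-like basic helix-loop-helix protein, had 4 regions, with pooled scores of 236.5, 307.3, 200.0 and 243.1. The first lay 117 bp upstream of a start and the last 2 lay 7126 and 7968 bp downstream of it, in introns of the neighbouring gene abts-4. All 4 had the E-box CACGTG at the summit, as did the region at chrX:6737529-6737952 toward R03E9.2 (319.0), the highest-scoring X region with that site. This was chosen for mention after the values were seen. The gene mxl-3, for a helix-loop-helix protein, had 5 regions with scores between 119.2 and 184.7, of which 1 had the E-box, and a sixth region of the same run lay nearest to C49F8.15 (216.4).

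**Figure D5:**
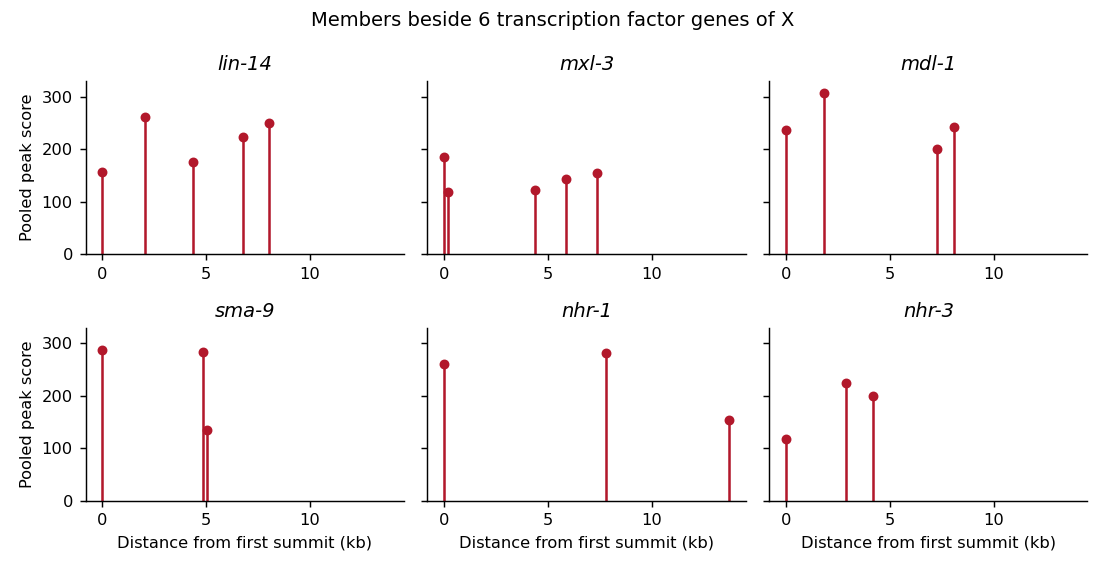
Pooled score of each region nearest to 6 transcription factor genes of X against the distance of its summit from the first summit of that gene, in kb along the chromosome. Scores lie between 116.9 and 307.3, and at lin-14 the 4 regions after the first all score higher than it.

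The gene sma-9, which encodes a Schnurri homolog that acts in BMP-type signalling, had 3 regions with scores of 286.9, 282.9 and 135.6, and all 3 held GA repeats. The nuclear hormone receptor genes nhr-1 (260.0, 281.4 and 153.7) and nhr-3 (116.9, 225.4 and 200.5) had 3 each. The others with 3 or more were F49E2.5 (4 regions, 115.2 to 132.8), C34D10.5 inside unk-1 (254.4, 316.0 and 530.0), ftt-2 (146.3, 500.6 and 267.8), kin-20 (171.3, 379.6 and 147.1), tatn-1, a tyrosine aminotransferase gene (115.7, 318.5 and 213.6), pdi-2, for a protein disulfide isomerase (199.7, 125.8 and 124.3), scd-1 (114.5 to 136.4), W05H9.4 (129.7 to 211.5) and ZK470.2 (118.9 to 131.4). At unk-1, ftt-2, kin-20 and tatn-1 a single region stood well above the others of its gene.

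At the level of genes, 95 of 2730 protein-coding genes of X (3.48%) had a region within 500 bp of a start, against 530 of 17241 on the autosomes (3.07%), an odds ratio of 1.14 (two-sided exact p = 0.261). A region between divergent starts counts for both genes. Without replicate 1 the odds ratio was 0.970 (exact p = 0.812) and without replicate 2 it was 1.26 (exact p = 0.0474). The share of 3.48% is the level against which the lists below can be read, and small lists carry no test.

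The 7 X-linked genes of sex determination and dosage compensation (ceh-39, fox-1, sdc-1, sdc-2, sex-1, tra-4 and xol-1) had no region. For so few genes a count of 0 allows a share of up to roughly 42.9%, and the limits given here are approximate. None of 73 genes for neuropeptides and their receptors had one (up to 4.11%), none of 26 homeobox genes (up to 11.5%) and none of 35 cuticle genes (up to 8.57%). Of 75 genes listed as ion channels and transporters, 1 did, sto-4 (pooled score 322.9), and of 29 genes listed under chromatin 1 did, bet-2 (155.2 at its start). The lists were drawn by gene symbol, and sto-4 encodes a stomatin, so the channel list also holds genes of other kinds. Muscle genes had 1 of 18, the actin gene act-4 (114.3), and neuronal genes 2 of 15, the dynamin gene dyn-1 (150.6) and the liprin gene syd-2 (201.9).

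Some genes of protein synthesis and folding had regions within 500 bp of their starts. They were 1 of 2 ribosomal protein genes, rpl-11.2 (pooled score 314.9, 384 bp upstream), 1 of 3 translation factor genes, eef-1A.2 for elongation factor 1-alpha (298.9, 395 bp upstream), and 4 of 7 genes of heat shock proteins and folding enzymes. The 4 were hsp-3, an endoplasmic reticulum Hsp70 of the BiP type (272.4), the disulfide isomerase genes pdi-2 (199.7) and pdi-6 (162.2), and dnj-14, a J-domain cochaperone gene (151.6). The dnj-14 region lay 283 bp upstream of its start and 248 bp upstream of the start of glit-1, so it counts for both. All 6 summits lay upstream of the start, between 55 and 395 bp, as did 86 of the 93 promoter summits of X. On the autosomes the same lists had a region at 18 of 76 ribosomal protein genes, 8 of 42 translation factor genes and 14 of 70 heat shock and folding genes. The lists hold few X-linked genes, and their regions were known from earlier results of these data.

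Nuclear hormone receptors had 4 of 27 genes with a region within 500 bp of a start: nhr-1 (pooled score 153.7), nhr-40 (148.4), nhr-35 (132.5) and nhr-32 (110.9, the lowest of all 280). Counted by the nearest start at any distance, 12 of 27 had a region, where the same count over all protein-coding genes of X was 217 of 2730 (7.95%). The 12 included nhr-45, nhr-48 (276.7, with the MEX core), nhr-71 (235.8), daf-12 (209.2) and nhr-25, an Ftz-F1-type receptor gene active in epidermis and molting (202.1). Genes differ in the length of the intergenic sequence around them, and the part of that length in these counts was not tested. Of 41 genes of other transcription factor families 3 had a region within 500 bp, mdl-1 (236.5), atf-6 (171.8), a homolog of the unfolded-protein-response factor, and lin-14 (155.7), and 8 were nearest to one. Among the other lists, 2 of the 73 neuropeptide and receptor genes were nearest to a region, ins-39 (257.6, with the MEX core) and gnrr-3 (127.1). Of the 29 genes listed under chromatin 4 were, spat-3 (382.1), hda-4 (269.9), bet-2 (266.9) and wdr-54 (148.8). That list was drawn by gene symbol, and a role of each gene in chromatin was not checked. By the same count there were 4 of 15 neuronal genes, 2 of 75 genes listed as ion channels and transporters (sto-4 and twk-18), 1 of 35 cuticle genes and 1 of 18 muscle genes. There were none of the homeobox genes or of the genes of sex determination and dosage compensation.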

How the data were processed

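The authors deposited 4 narrowPeak lists of regions, on build ce11 (the same coordinates as WBcel235): a relaxed list for each replicate, a pooled relaxed list and an optimal list. Per the README deposited with the samples, each relaxed list was made from alignments and 1 control, while the optimal list was derived from the relaxed lists. For the aligner, the caller, their versions and the threshold nothing was given in the sources used here. The score is the authors' signal value per region, and the deposited −log10 q value was not used in any test. Each summit came from the deposited offset column. All 29629 pooled, 29577 replicate 1 and 28681 replicate 2 regions were read, with no further filter.

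Genes and sequence came from RefSeq WBcel235, with 1-based coordinates. Odds ratios have 0.5 added to each cell, intervals are exact (Clopper-Pearson), and tests were checked on simulated data. Upper limits for gene lists with a count of 0 are not exact: they are 3 divided by the number of genes, which is rough for short lists. Python 3.11.15, scipy 1.17.1 and statsmodels 0.14.6 were used. Motifs were searched as their letters on both strands within 75 bp of the summit, and a window was single-copy when every 36-base word in it occurs once in the genome. Named genes are those of the 20 strongest regions, the 3 strongest of each class of sequence, the extremes between replicates, list genes with a region within 500 bp, genes nearest to 3 or more regions and regions at the edge of the distance rule; others are named as such where they appear. The members, motifs and lists were chosen with earlier results of these data known. The labels call the samples biological replicates 1 and 2. The alternatives tried are given in the closing section.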

Additional observations from a re-analysis of the deposited data

Results flagged for a closer look

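The contrast between optimal and weaker regions differed between X and the autosomes for 2 features. For the MEX core CGCAGGG the odds ratio of optimal over weaker regions was 13.7 on X and 3.57 on the autosomes, a ratio of 3.85 (likelihood ratio chi-square test, adjusted p = 0.0174), and this held in each of the 9 alternatives computed for it. For coding exons the odds ratio was 0.0597 on X and 0.167 on the autosomes, a ratio of 0.357 (same chi-square test, adjusted p = 0.0374), which did not hold in 6 of its 8 alternatives.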

How the results depend on the processing

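Values are odds ratios with 0.5 added, or ratios of odds ratios for interactions of X or autosome with optimal or weaker. Of 433 comparisons of a result with an alternative, 365 kept the side of the threshold and direction. The MEX core kept its 3 calls in all alternatives computed for it. Most of the 22 changes of direction concern ratios near 1 that were not called. Sequencing depth is unknown. No paired analysis was possible because there is only 1 group. Replicate and top-list shares could not be computed without a replicate.

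Using 1 replicate at a time, X against autosomes gave 0.422 to 0.614 for untranslated exons, 1.88 to 2.26 for non-coding genes, 0.642 to 0.806 for promoters, 0.685 to 0.841 for near neighbours, 0.810 to 1.02 for GAGAGA, 0.886 to 0.889 for GATAAG and 1.455 to 1.464 for the share in the top 25% of scores, which passed with either replicate alone. Genes with a region gave 0.970 to 1.26, the share on X 1.02 to 1.15, and 6-mers 4 to 5 calls. Optimal against weaker regions of X gave 0.494 to 0.862 for untranslated exons, 0.961 to 1.29 for single-copy windows and 0.845 to 1.04 for the middle length. Interactions gave 1.59 to 1.84 for non-coding genes, 0.671 to 0.772 for near neighbours, 0.862 to 1.02 for GAGAGA, 0.312 to 0.507 for coding exons, 0.847 to 1.06 for promoters and 0.627 to 0.764 for the middle length.

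With no distance rule, X against autosomes passed for non-coding genes (2.28) and promoters (0.645), single-copy windows turned to 0.526 (within X 0.297, interaction 0.335), the share on X passed (1.21) and the coding-exon interaction did not (0.505). In the stricter list (the top 50% of optimal regions by score) the share on X (1.21) and promoters (0.565) passed. Coding exons (0.333, interaction 0.494), the middle length (0.769) and untranslated exons within X (0.376) lost their calls there. GATAAG, not called in the main setting either, changed direction (0.955). With single-copy windows alone promoters (0.709) and untranslated exons (0.373) passed, and untranslated exons within X (0.439) and the coding-exon interaction (0.392) lost their calls. The middle length within X (0.971) and the GATAAG interaction (1.02), not called in the main setting either, changed direction.

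With starts within 250 bp promoters passed (0.606), and within 1000 bp their interaction turned to 1.03. Neighbours within 1000 bp gave 1.06 and an interaction of 1.19. Replicate summits within 200 bp gave 0.530. Windows of 50 bp on each side gave 185 6-mers above flanks and 1 called against autosomes.

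The alternatives chosen after seeing the data were 1 region per cluster and autosomes without V. With 1 region per cluster distal (1.36) and middle-length shares (0.662) lost their calls against autosomes, and distal passed within X (0.671). Within X near neighbours (1.32) and untranslated exons (0.468) lost their calls. The middle length within X (0.954), not called in the main setting either, changed direction. Interactions were then 0.375 for coding exons, 0.957 for distal, 1.02 for GATAAG, 0.945 for non-coding genes and 1.04 for promoters, none called. Without V, non-coding genes (1.84), untranslated exons (0.347) and the CACGTG interaction (2.01) passed, and the coding-exon interaction (0.499) lost its call. The GATAAG interaction (1.34), not called in the main setting either, changed direction. The cause of these changes was not tested.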

Other observations

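Non-coding genes of X stood beside some of the strongest regions. Of 2520 unclassified ncRNA genes of X, 117 (4.64%) had a region within 500 bp of a start, against 5.46% on the autosomes, and of 73 microRNA genes 4 did (5.48%), against 21 of 187 (11.2%). The microRNA genes were mir-54 and mir-55, beside 1 region with a pooled score of 217.0, F09A5.15 beside the same region, and mir-56 beside a region of 124.7. Neither difference was tested. The summit at puf-9 lies 53 bp from the start of the ncRNA gene W06B11.7, and that at epn-1 lies 28 bp from the start of T04C10.8.

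Of the 280 X regions, 28 (10%) had another optimal summit 190 to 220 bp away, against 78 of 1129 autosomal regions (6.91%), and the median distance to the next optimal summit was 10532 bp on X and 7364 bp on the autosomes. Most regions had 1 fixed width of 424 bp (258 of the 280), and the members of such close pairs overlap in sequence.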
